A study of Saccharomyces cerevisiae with 40 samples.

Results

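The 32 genes described here encode the enzymes that take glucose to pyruvate and the enzymes that ferment pyruvate to ethanol, acetate and glycerol in budding yeast. They were picked by symbol, and their spots in both value tables were averaged per gene. All 32 were on the arrays, among 5557 genes with a name, and 29 of them had values on at least 30 of the 40 arrays and entered the tests with 4332 genes in all. The tested members were 8 of the 8 genes of upper glycolysis, 10 of 10 of lower glycolysis, 5 of 8 of the ethanol branch, 4 of 4 of the acetate branch and 2 of 2 of the glycerol branch. ADH2 had values on 29 arrays, ADH5 on 28 and PDC6 on 14, so these 3 genes are given by their values in the arrays.

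Strain Σ1278b, a wild-type background used for work on nitrogen regulation, was grown in minimum medium with 3% glucose and a single nitrogen source. Each of 20 sources was compared with urea, the reference, which was chosen because its use by the cell is well understood. Sources and urea were supplied at 10 mM, except tryptophan at 5 mM, ammonium came as its sulfate, and cells were collected in exponential phase after at least 10 generations. Every array carried RNA of the source in one of the dyes Cy5 and Cy3 and RNA of urea cultures in the other, 2 arrays per source. The dyes were exchanged between the arrays of 18 sources, whereas tryptophan and tyrosine had the source in Cy3 on both. Cells grew at different rates on the different sources, per the series' design text, and growth rate was not part of the tests. Nothing in the labels says that 2 arrays stand for 2 cultures, so the p-values speak of array spread, possibly technical.

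On glucose, yeast runs glycolysis at a high rate and ferments most of the pyruvate to ethanol even when oxygen is present. Pyruvate decarboxylase and alcohol dehydrogenase carry that branch, aldehyde dehydrogenases and acetyl-CoA synthetase divert some acetaldehyde to acetate and acetyl-CoA, and glycerol-3-phosphate dehydrogenase uses up surplus NADH by making glycerol. Several steps have isozymes that respond differently to glucose: HXK2, ENO2 and CDC19 are the forms known for growth on glucose, while HXK1, GLK1, PYK2 and ADH2 are known for repression by it. Pyruvate decarboxylase and alcohol dehydrogenase family enzymes also work on the carbon skeletons of branched-chain, sulfur and aromatic amino acids, which leave the cell as fusel alcohols.

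A value below is the fitted log2 ratio against urea ± SE (from 2 arrays of the source, with the spread of a gene estimated over all arrays), and "array values" are the deposited ratios turned to source over urea. A gene passed on a source when limma's moderated test, adjusted by Benjamini-Hochberg over all genes tested on that source, gave a p under 0.05. Between 3294 and 5218 genes (median 4708) and between 25 and 32 members had a value on an array, and precision is bounded by the few arrays per source. Replicate arrays of a source correlated across genes at 0.372 (citrulline) to 0.811 (glutamine). As a check of the labels, UGA4, a GABA permease gene, was at 4.42 on GABA, and MET3, an enzyme gene of sulfate assimilation, at -2.60 on methionine. CAR1, the arginase gene, was at 5.47 on citrulline but at 1.57 on arginine and 1.72 on ornithine, below several other sources. The ratios are centred on each array, so a value is relative to the typical gene, and in bulk RNA fewer cells with a transcript and less transcript per cell cannot be told apart. Urea RNA was on every array, so a move shared by all sources cannot be told apart from a feature of the urea cultures.

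PGK1 and CDC19 of lower glycolysis and the glycerol synthesis genes GPD1 and GPD2 were higher on many sources than on urea, the hexokinase genes HXK1 and HXK2 and the mitochondrial alcohol dehydrogenase gene ADH3 were lower, and the acetate genes moved in either direction. Over all tests of a member on a source, 121 of 545 were higher than on urea (22.2%) and 54 lower (9.91%), where the share over all genes was 10.1% higher and 9.42% lower. Over all members the excess was in the higher direction. It lay mostly in the glycerol genes and in lower glycolysis. The glycerol genes had 29 of 40 tests higher (72.5%), 18 of them in GPD2, which kept 1 without the dye term. Lower glycolysis had 58 of 196 higher (29.6%), of which PGK1 had 15 and CDC19 16. TDH2, TDH3 and PYK2 had 1 higher each, and GPM2 had 0 higher (1 at an unadjusted p under 0.05) and 9 lower. Upper glycolysis had 12 of 142 tests higher (8.45%) and 19 lower (13.4%). The ethanol branch had 14 (15.7%) and 13 (14.6%) of 89, and the acetate branch 8 (10.3%) and 12 (15.4%) of 78. In upper glycolysis and in the ethanol and acetate branches the lower share was above that of all genes. The ethanol branch was above it in the higher direction as well. The median fitted value was 0.14 over the members' tests and 0.00 over all genes' tests.

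**Figure D1:**
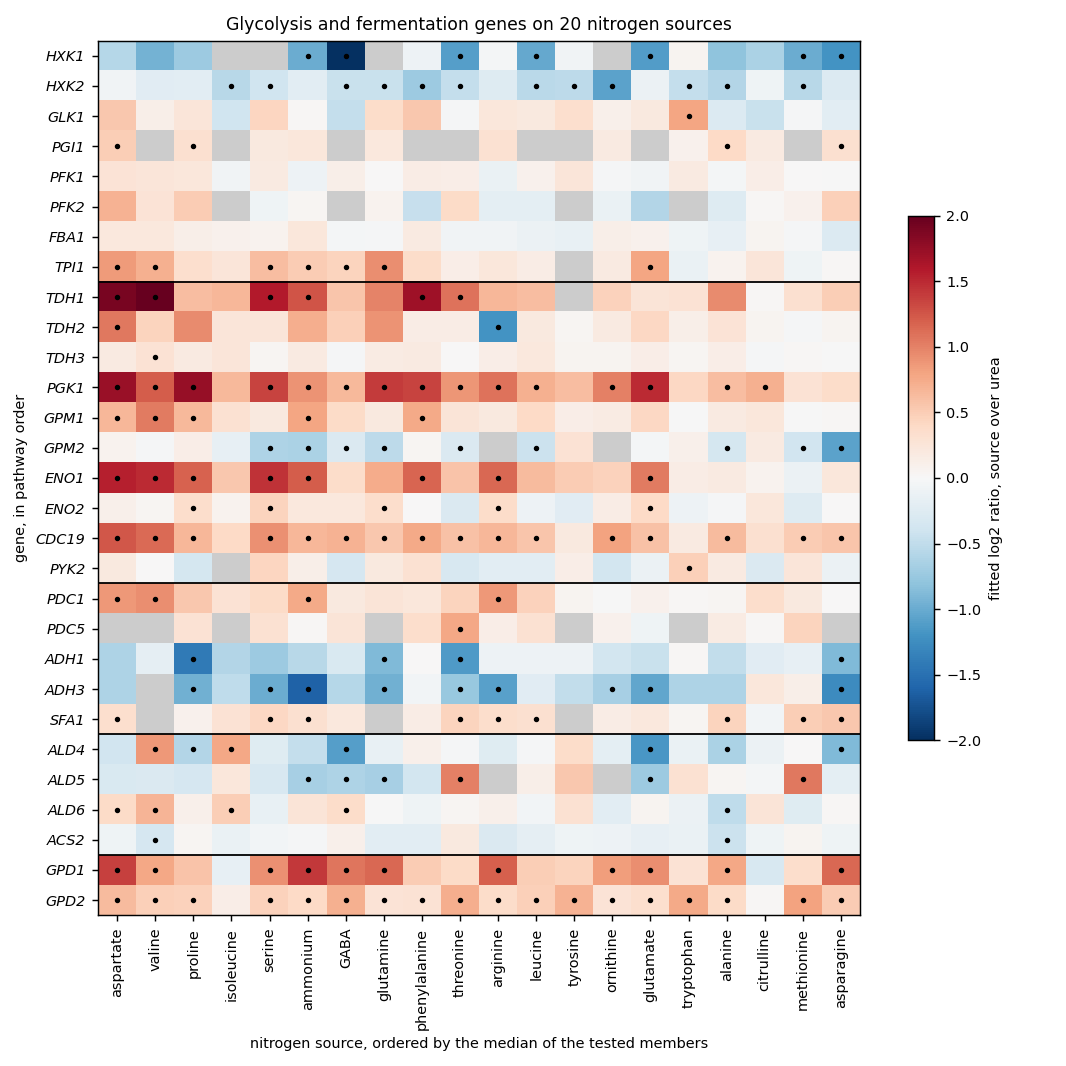
Fitted log2 ratios of source over urea for the 29 tested genes (rows, in pathway order, lines between the branches) on 20 nitrogen sources (columns, ordered by the median over the members). Red is higher and blue lower than on urea, and colours stop at 2 and -2. Dots mark tests that passed, and grey marks genes without values on both arrays. The highest means over sources were those of PGK1 (0.96), TDH1 (0.88), ENO1 (0.73), GPD1 (0.71), CDC19 (0.63) and GPD2 (0.46). PGK1, CDC19, GPD1 and GPD2 had the most dots for rises, on 15, 16, 11 and 18 sources.

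By limma's moderated F-test over all sources, 25 of the 29 members departed from urea on some source, where 63.5% of all genes did. By the F-test that all sources are equal, which does not depend on the urea level, 15 of 29 members differed between sources, against 23.5% of all genes. These were HXK2, TPI1, TDH1, PGK1, GPM2, ENO1, ENO2, CDC19, PYK2, ADH3, ALD4, ALD5, ALD6, GPD1 and GPD2. Leaving out single arrays ended this for PYK2 (29 of 40 arrays), TDH1 (21), ENO1 (16), HXK2 (2) and CDC19 (1), with the highest adjusted p without serine replicate 2 (0.0771), valine replicate 2 (0.125), aspartate replicate 2 (0.0741), ornithine replicate 1 (0.0787) and aspartate replicate 2 (0.0519). Without the dye term 8 members differed between sources, and TPI1, TDH1, PGK1, ENO1, ENO2, PYK2 and GPD2 were not among them. With the replicate block, ENO1, PYK2 and GPD2 fell short (adjusted p = 0.0619, 0.0718 and 0.101). GPM2 had the smallest adjusted p (4.85e-06), followed by ALD4 (0.000161) and ALD5 (0.000327). Of the 175 calls on single sources, 30 held with either array of the source left out, 115 held without the dye term and 156 with the replicate block in its place.

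**Figure D2:**
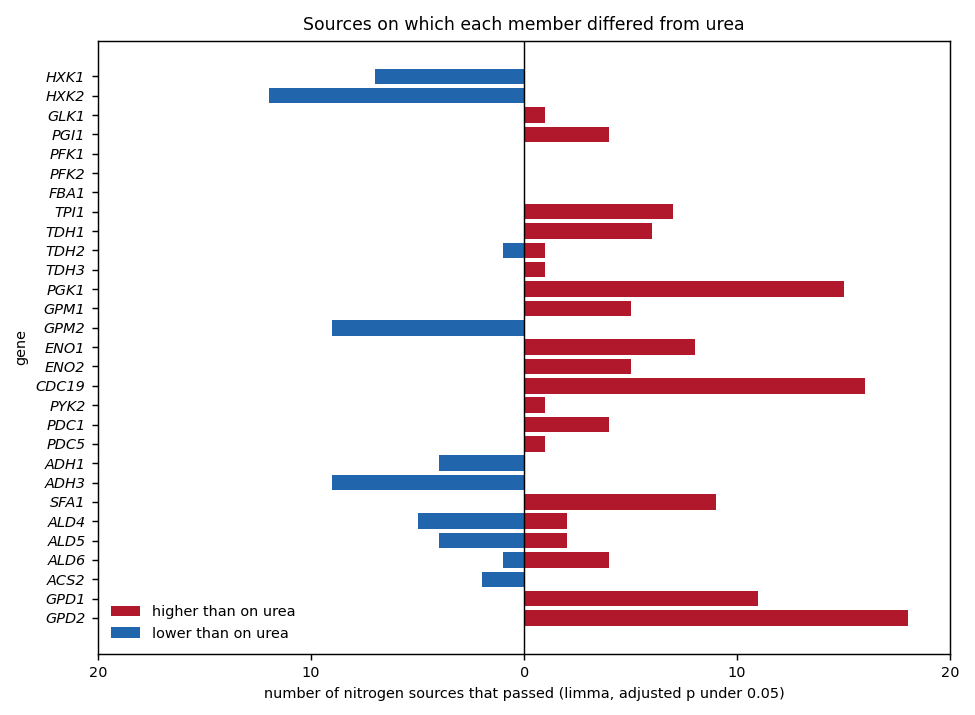
Number of nitrogen sources on which each tested gene passed as higher (red, to the right) or lower (blue, to the left) than on urea. GPD2, CDC19, PGK1 and GPD1 passed as higher on 18, 16, 15 and 11 sources, and HXK2 as lower on 12.

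Hexokinases phosphorylate glucose at the entry of the pathway. HXK2, the main form on glucose, fell on 12 of 20 sources and passed as higher on none (0 also at an unadjusted p under 0.05). Only 4.18% of all genes were lower on 10 or more sources. Its array values ran from -1.08 to 0.06 (median -0.38), and 2 of 40 were above 0. The lowest source was ornithine, with array values of -1.08 and -1.06 (-1.07 ± 0.13, 0.477-fold, adjusted p = 4.44e-06), which held with either array left out. The other 11 calls were each lost without an array of the source, with -0.60 to -0.25 left. The smallest departure was on aspartate, at -0.07 ± 0.13.

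HXK1, the hexokinase gene known for repression by glucose, fell on 7 of the 16 sources tested (mean -0.77, SD 0.54 over sources), and 5 of its 36 array values were above 0. On GABA both arrays were low (-1.98 and -2.02), the fitted value was -2.00 ± 0.36 (0.250-fold, adjusted p = 0.000355), and the call held with either array left out. The highest value was 0.05 ± 0.37 on tryptophan. The arrays of several sources lay far apart, as in -0.47 and -1.56 on leucine. The calls other than GABA were each lost without an array of the source, with -1.35 to -0.28 left, and 2 of the 7 remained without the dye term and 4 with the replicate block. The F-test between sources did not pass for HXK1 (adjusted p = 0.122). GLK1, the glucokinase gene, passed on tryptophan only, with array values of 0.65 and 1.03 (0.78 ± 0.24, adjusted p = 0.0221), and the call was lost without replicate 1 (0.97) and without replicate 2 (0.59). Both tryptophan arrays had the source in Cy3, so this value also rests on the dye term, and tryptophan was supplied at 5 mM. The lowest GLK1 value was -0.47 ± 0.23 on GABA.

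The middle of upper glycolysis had few calls, which with 2 arrays per source does not show that its genes stayed at the urea level. PFK1 and PFK2, the subunit genes of phosphofructokinase, and FBA1, the aldolase gene, passed on no source by limma's test, a state shared by 25.9% of all genes. At an unadjusted p under 0.05, PFK1 was higher on 4 sources, PFK2 higher on 1 and lower on 1, and FBA1 lower on 1. PFK1 ranged from -0.13 (arginine) to 0.28 (aspartate), PFK2 from -0.59 (glutamate) to 0.70 (aspartate) and FBA1 from -0.27 (asparagine) to 0.23 (ammonium). PGI1, the phosphoglucose isomerase gene, rose on 4 of 11 sources: aspartate (0.50 ± 0.11), alanine (0.40 ± 0.11), proline (0.32 ± 0.11) and asparagine (0.32 ± 0.11). Its lowest value was 0.09 on tryptophan, and each of the 4 calls was lost without either array, with 0.21 to 0.50 left. Without the dye term 2 remained, and 2 with the replicate block.

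TPI1, which interconverts the triose phosphates at the end of upper glycolysis, rose on 7 of 19 sources (mean 0.35, SD 0.31). Its array values were 0.51 and 1.36 on glutamine (0.94 ± 0.14, adjusted p = 3.09e-05), 0.64 and 1.07 on aspartate (0.86 ± 0.14) and 0.51 and 1.06 on glutamate (0.79 ± 0.14). On these 3 sources all arrays were above 0.5, and the calls held with either array left out. The lowest value was -0.13 ± 0.15 on tryptophan, where the arrays gave 0.01 and 0.08. The calls on ammonium, GABA, serine and valine were lost without an array of the source, with 0.15 to 0.60 left. TPI1 differed between sources (adjusted p = 0.00324).

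Lower glycolysis takes triose phosphate to pyruvate and yields ATP at PGK1 and CDC19. PGK1, the phosphoglycerate kinase gene, was above 0 on all 40 arrays (0.10 to 2.37, median 0.90) and rose on 15 of 20 sources. CDC19, the pyruvate kinase gene used on glucose, was above 0 on all 40 arrays as well (0.15 to 1.45, median 0.63) and rose on 16. Of all genes, 5.12% were higher on 10 or more sources. The PGK1 array values were 2.37 and 1.12 on proline (1.74 ± 0.23, 3.35-fold, adjusted p = 6.31e-06), 2.07 and 1.38 on aspartate (1.73 ± 0.23), and 0.48 and 0.10 on methionine, the lowest source (0.29 ± 0.23, adjusted p = 0.382). The proline arrays lay further apart than those of aspartate, and the lower of each pair was still above both methionine arrays. Proline, aspartate and methionine were picked by their fitted values, so this gap is partly set by that choice. The PGK1 calls on aspartate, glutamate, glutamine, proline and serine held with either array left out, and the other 10 were lost without an array, with 0.26 to 1.10 left.

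For CDC19, aspartate was the highest source with array values of 1.02 and 1.45 (1.24 ± 0.14, 2.36-fold, adjusted p = 7.89e-07), and valine followed with 1.12 and 1.15 (1.14 ± 0.14). The lowest were tryptophan, at 0.15 and 0.19 on the arrays (0.19 ± 0.14), and tyrosine, at 0.18 and 0.17 (0.19 ± 0.14). The arrays of these highest and lowest sources did not overlap, which follows in part from picking them as the extremes. Calls on aspartate, ornithine, serine and valine held with either array left out, and the other 12 were lost without an array, with 0.28 to 0.61 left. PYK2, the pyruvate kinase gene known for glucose repression, passed on tryptophan only, with array values of 0.19 and 0.64 (0.48 ± 0.17, adjusted p = 0.0484), and fell short without replicate 2 (0.26) and with the replicate block (adjusted p = 0.0994). Its lowest value was -0.36 ± 0.17 on ornithine. As a description, the fitted values of CDC19 and PYK2 had a correlation of 0.00 over 19 sources.

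**Figure D3:**
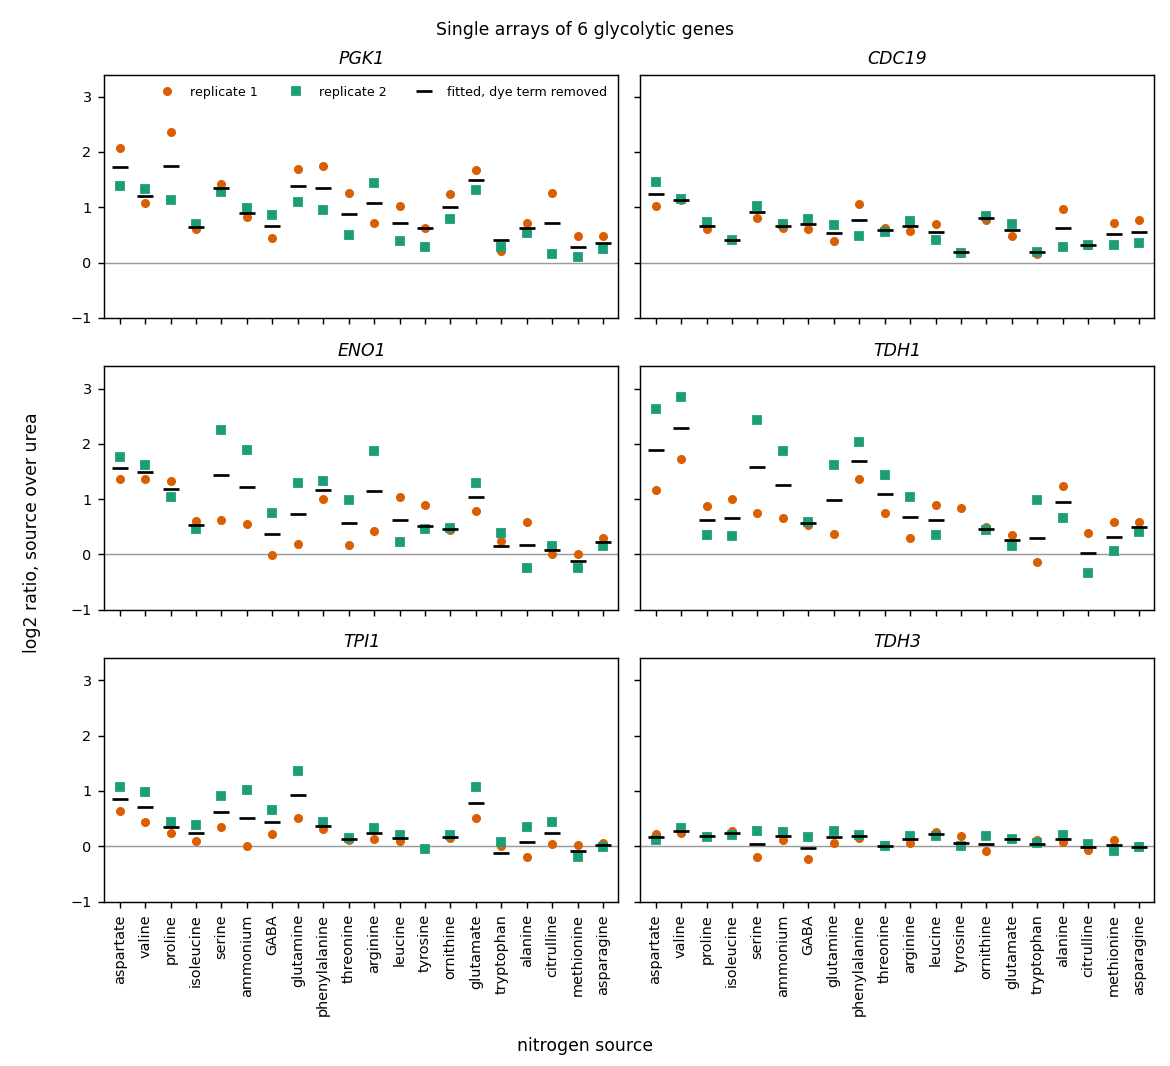
Log2 ratios of source over urea on the single arrays (circles, replicate 1; squares, replicate 2) and the fitted values (bars) of PGK1, CDC19, ENO1, TDH1, TPI1 and TDH3 on 20 nitrogen sources. All 40 arrays of PGK1 and of CDC19 lie above 0, whereas TDH3 stays between -0.22 and 0.33.

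Glyceraldehyde-3-phosphate dehydrogenase has 3 genes, and cross-hybridisation between their probes was not tested. TDH1 had the largest fitted value among the 29 tested members: on valine the arrays gave 1.73 and 2.84 (2.28 ± 0.37, 4.87-fold, adjusted p = 0.000165), and on aspartate 1.16 and 2.62 (1.89 ± 0.37). It rose on 6 of 19 sources (valine, aspartate, phenylalanine, serine, ammonium and threonine), and 37 of 39 array values were above 0. Each of the 6 calls was lost without replicate 2, with 0.76 to 1.84 left, and threonine also without replicate 1 (1.31). The lowest source was citrulline, at 0.38 and -0.34 on the arrays (0.02 ± 0.37). TDH2 rose on aspartate (arrays 0.34 and 1.76, 1.05 ± 0.38, adjusted p = 0.0485), which was lost without either array (1.64 and 0.46 left) and with the replicate block (adjusted p = 0.0554). It fell on arginine (-1.20 ± 0.38, adjusted p = 0.0295) through replicate 1 alone: the arrays gave -2.52 and 0.12, and without replicate 1 the value was 0.04. TDH3 passed on valine only (0.24 and 0.33 on the arrays, 0.29 ± 0.09, adjusted p = 0.0378), lost without either array (0.29 and 0.28 left), and its lowest value was -0.02 on GABA.

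GPM1, the phosphoglycerate mutase gene, rose on 5 of 20 sources: valine (1.05 ± 0.19), ammonium (0.79 ± 0.19), phenylalanine (0.76 ± 0.19), aspartate (0.67 ± 0.19) and proline (0.65 ± 0.19). Its lowest value was -0.01 on methionine. Each of the 5 calls was lost without an array of the source, with 0.35 to 0.77 left. GPM2, a GPM1 homologue whose protein is reported to have little or no mutase activity, went the other way and fell on 9 of 18 sources.

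GPM2 had the smallest p of the members in the test between sources. On asparagine its array values were -1.11 and -1.02 (-1.06 ± 0.10, 0.478-fold, adjusted p = 2.56e-08), on ammonium -0.67 and -0.60 (-0.64 ± 0.10) and on serine -0.84 and -0.40 (-0.62 ± 0.10). On tyrosine, the highest source, the arrays gave 0.50 and 0.30 (0.28 ± 0.10, adjusted p = 0.0676). The asparagine arrays, picked as those of the lowest source, were lower than every other array of the gene, and the tyrosine arrays were above 0. The 3 calls named held with either array left out, and the other 6 were lost without an array, with -0.47 to -0.15 left. Without the dye term 5 of the 9 remained. GPM2 lies next to GPD1 on chromosome IV with no coding gene between them, and GPD1 rose on the 3 sources where GPM2 was lowest, at 1.15 on asparagine, 1.41 on ammonium and 0.92 on serine, but it rose as well where GPM2 did not pass, at 1.37 on aspartate (GPM2 0.07) and 0.93 on glutamate (GPM2 -0.04). As a description, their fitted values had a correlation of -0.47 over 18 sources.

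Both enolase genes rose on some sources, and their fitted values had a correlation of 0.50 over 20 sources. ENO1 rose on 8 of 20 sources (mean 0.73, SD 0.52). On aspartate its arrays gave 1.36 and 1.76 (1.56 ± 0.31, 2.95-fold, adjusted p = 0.000616), a call that held with either array left out. On methionine, its lowest source, they gave 0.00 and -0.24 (-0.12 ± 0.31). On serine, ammonium and arginine replicate 2 was far above replicate 1, as in 0.63 and 2.26 on serine. The 7 calls other than aspartate were lost without an array, with 0.57 to 1.54 left.

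ENO2, the enolase gene induced by glucose, rose on 5 sources by less: serine (arrays 0.10 and 0.78, 0.44 ± 0.11), glutamate (0.33 and 0.46, 0.40 ± 0.11), arginine (0.06 and 0.68, 0.37 ± 0.11), glutamine (0.08 and 0.63, 0.35 ± 0.11) and proline (0.08 and 0.61, 0.35 ± 0.11). On 4 of these, replicate 1 was near 0. None of the 5 calls remained without the dye term, whose estimate for ENO2 was -0.19, and each was lost without an array of the source, with 0.25 to 0.44 left. The lowest source was threonine, at -0.68 and 0.11 (-0.29 ± 0.11, adjusted p = 0.0569).

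In the ethanol branch, PDC1, the main pyruvate decarboxylase gene, rose on 4 of 20 sources: valine (arrays 1.53 and 0.32, 0.93 ± 0.22), arginine (0.51 and 1.23, 0.87 ± 0.22), aspartate (1.46 and 0.27, 0.86 ± 0.22) and ammonium (0.52 and 1.00, 0.76 ± 0.22). The arrays of each source lay apart, and each call was lost without the higher array, with 0.31 to 0.43 left. On ornithine, the lowest source, the arrays gave -0.10 and 0.10. PDC5, a second pyruvate decarboxylase gene, rose on threonine (0.65 and 0.88, 0.77 ± 0.19, adjusted p = 0.00688) among 13 sources tested, a call lost without either array (0.75 and 0.78 left), and was lowest on glutamate at -0.08 ± 0.19. PDC6, a weakly expressed isozyme gene on glucose, had values on 14 arrays, -0.19 to 0.73, all of them with the source in Cy5.

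Alcohol dehydrogenase reduces acetaldehyde to ethanol in the cytosol (ADH1) and acts in the mitochondrion (ADH3). ADH3 fell on 9 of 19 sources (mean -0.67, SD 0.47), and 4 of its 39 array values were above 0. On ammonium the arrays gave -1.76 and -1.48 (-1.62 ± 0.23, 0.325-fold, adjusted p = 2.29e-05) and on asparagine -1.24 and -1.27 (-1.26 ± 0.23), and both calls held with either array left out. On citrulline, the highest source, they gave -0.08 and 0.54 (0.23 ± 0.23). The other 7 calls were lost without an array, with -1.01 to -0.60 left.

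ADH1, the fermentative enzyme's gene, was dominated by the dyes. Its dye term was 0.77, the largest of the tested members, and on the 18 sources with exchanged dyes the array with the source in Cy5 read higher than the other. It passed as lower on proline (-0.21 and -2.62 on the arrays, -1.41 ± 0.29, adjusted p = 0.00129), threonine (-0.19 and -2.07, -1.13 ± 0.29), glutamine (-0.28 and -1.49, -0.89 ± 0.29) and asparagine (0.11 and -1.86, -0.88 ± 0.29). No ADH1 call remained without the dye term (adjusted p = 0.245 to 0.460). All 4 were lost without replicate 2 (-1.05 to -0.65 left), asparagine and glutamine also without replicate 1 (-1.11 and -0.72) and with the replicate block (adjusted p = 0.105 and 0.102). Tryptophan was highest at 0.02 ± 0.29, although its arrays, both with the source in Cy3, gave -1.11 and -0.38.

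**Figure D4:**
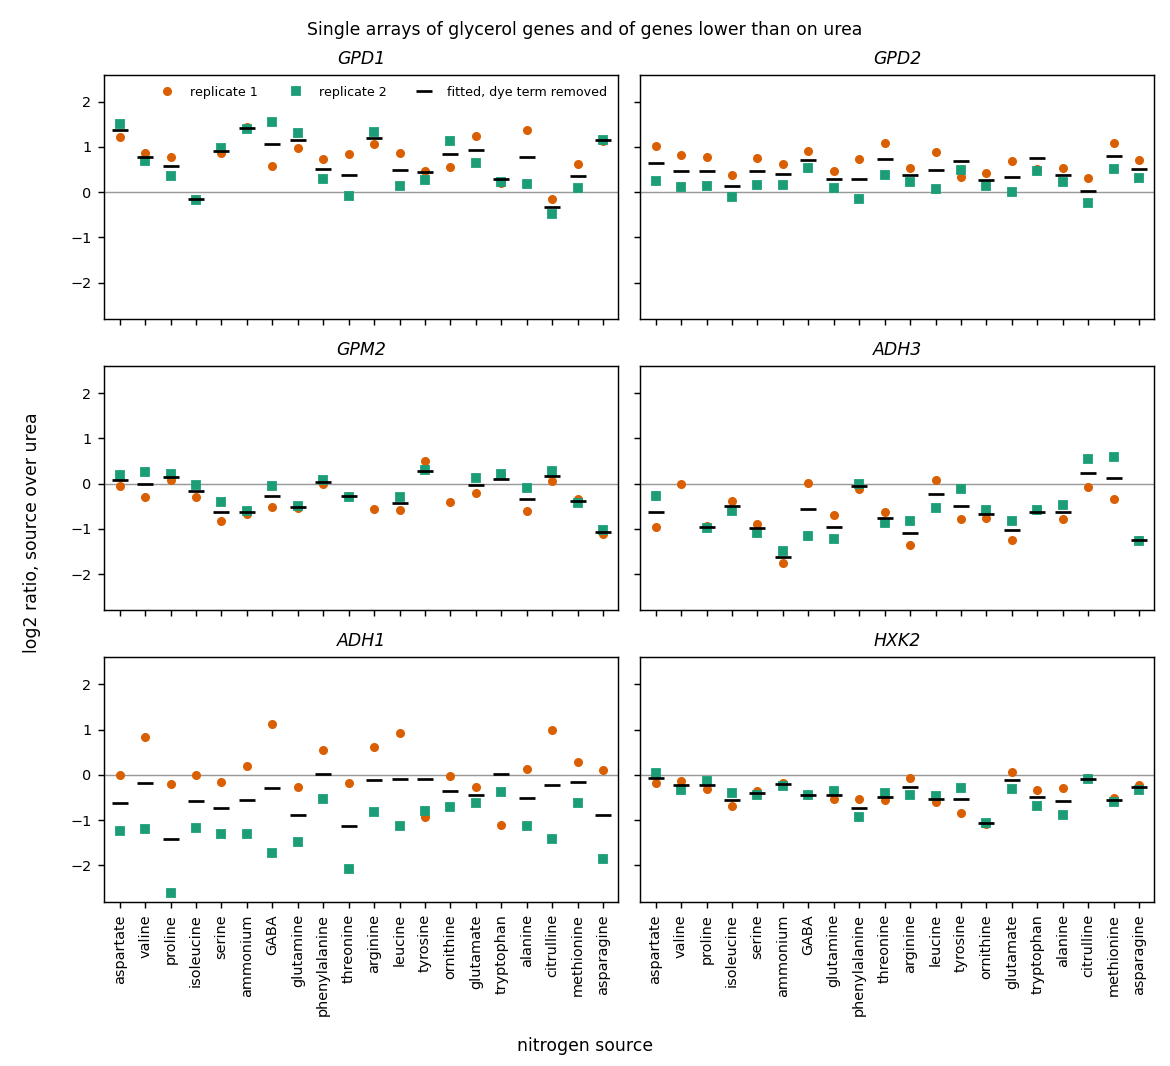
Log2 ratios of source over urea on the single arrays (circles, replicate 1; squares, replicate 2) and the fitted values (bars) of GPD1, GPD2, GPM2, ADH3, ADH1 and HXK2 on 20 nitrogen sources. The replicates of ADH1 and GPD2 are apart by dye on the sources with exchanged dyes, and the fitted bars of tryptophan and tyrosine lie off both arrays because both have the source in Cy3.

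ADH2, the alcohol dehydrogenase gene of ethanol use, also split by dye and is given as values. On proline its arrays gave -0.24 and -2.00, on valine 1.33 and -0.88 and on GABA 0.99 and -1.04. In a fit of genes with at least 20 arrays, proline was at -1.12 ± 0.28 (adjusted p = 0.0145). SFA1, which encodes a dehydrogenase of formaldehyde and long-chain alcohols, rose on 9 of 17 sources by small amounts. Asparagine was highest (0.50 and 0.59, 0.54 ± 0.11, adjusted p = 0.00065) and citrulline lowest (-0.05 ± 0.11). Each of its calls was lost without an array of the source (0.09 to 0.47 left), and 5 of the 9 remained without the dye term.

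ADH5, an alcohol dehydrogenase gene of minor expression, had the highest values of the ethanol branch. On methionine the arrays gave 2.53 and 2.57, on leucine 1.99 and 1.21, on tryptophan 1.29 and 1.39, and on alanine 0.55 and 0.93. Methionine, leucine and tryptophan, picked here as the highest sources, lay above every array of the other sources that had values on both arrays. In the fit of genes with at least 20 arrays, ADH5 rose on these 4 sources, with 2.55 ± 0.20 on methionine (adjusted p = 1.87e-07), 1.60 ± 0.20 on leucine, 1.55 ± 0.21 on tryptophan and 0.74 ± 0.20 on alanine, among 11 sources tested. The lowest was phenylalanine at -0.16 ± 0.20. Threonine, with a value on 1 array, read 1.22.

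Of the 4 acetate genes, ALD4, ALD5 and ALD6 each had calls in both directions, as TDH2 did among the other members. Of all genes, 8.49% passed in both directions. ALD4, the main mitochondrial acetaldehyde dehydrogenase gene, fell on GABA (arrays -1.22 and -1.0, -1.11 ± 0.20, 0.464-fold, adjusted p = 0.000273), and this held with either array left out. It also fell on glutamate (-1.78 and -0.55, -1.17 ± 0.20), asparagine (-0.73 and -1.03, -0.88 ± 0.20), alanine (-0.63 ± 0.20) and proline (-0.59 ± 0.20). It rose on valine (0.90 and 0.84, 0.87 ± 0.20, adjusted p = 0.00389) and isoleucine (0.75 and 0.80, 0.77 ± 0.20). All 4 arrays were above every array of the falling sources, which follows in part from grouping the sources by their calls. The glutamate call was lost without replicate 1 (-0.62), asparagine without replicate 2 (-0.61), and alanine, proline, valine and isoleucine without either (-0.89 to -0.28 and 0.69 to 1.01 left).

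ALD5, a mitochondrial isozyme gene of minor expression, rose on methionine (1.05 and 1.07, 1.06 ± 0.20, 2.08-fold, adjusted p = 0.000419), a call that held with either array left out, and on threonine (0.72 and 1.28, 1.00 ± 0.20), lost without replicate 2 (0.64). It fell on glutamate (-0.65 and -0.79, -0.72 ± 0.20), ammonium (-0.55 and -0.79, -0.67 ± 0.20), glutamine (-0.66 and -0.68, -0.67 ± 0.20) and GABA (-0.51 and -0.73, -0.62 ± 0.20). The arrays of the falling sources agreed closely, but each call was lost when its source had a single array, with -0.73 to -0.56 left.

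ALD6, the cytosolic isozyme gene, rose on valine (0.72 and 0.63, 0.67 ± 0.13, adjusted p = 0.000601), isoleucine (0.53 and 0.44, 0.49 ± 0.13), aspartate (0.35 and 0.42, 0.39 ± 0.13) and GABA (0.51 and 0.23, 0.37 ± 0.13). It fell on alanine through replicate 2 (-0.07 and -0.95, -0.51 ± 0.13, and -0.12 without that array). The rises were lost without replicate 2 (0.27 to 0.64 left) and, except on valine, without replicate 1 (0.30 to 0.51 left). Without the dye term 2 of the 5 calls remained, valine and alanine, and GABA fell short with the replicate block (adjusted p = 0.0504). Both ALD4 and ALD6 had their highest values on valine and isoleucine. ACS2, the acetyl-CoA synthetase gene used on glucose, fell on alanine (-0.16 and -0.70, -0.43 ± 0.11, lost without replicate 2 at -0.13) and valine (-0.31 and -0.36, -0.34 ± 0.11, lost without either at -0.38 and -0.30), and was highest on threonine at 0.19 ± 0.11.

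**Figure D5:**
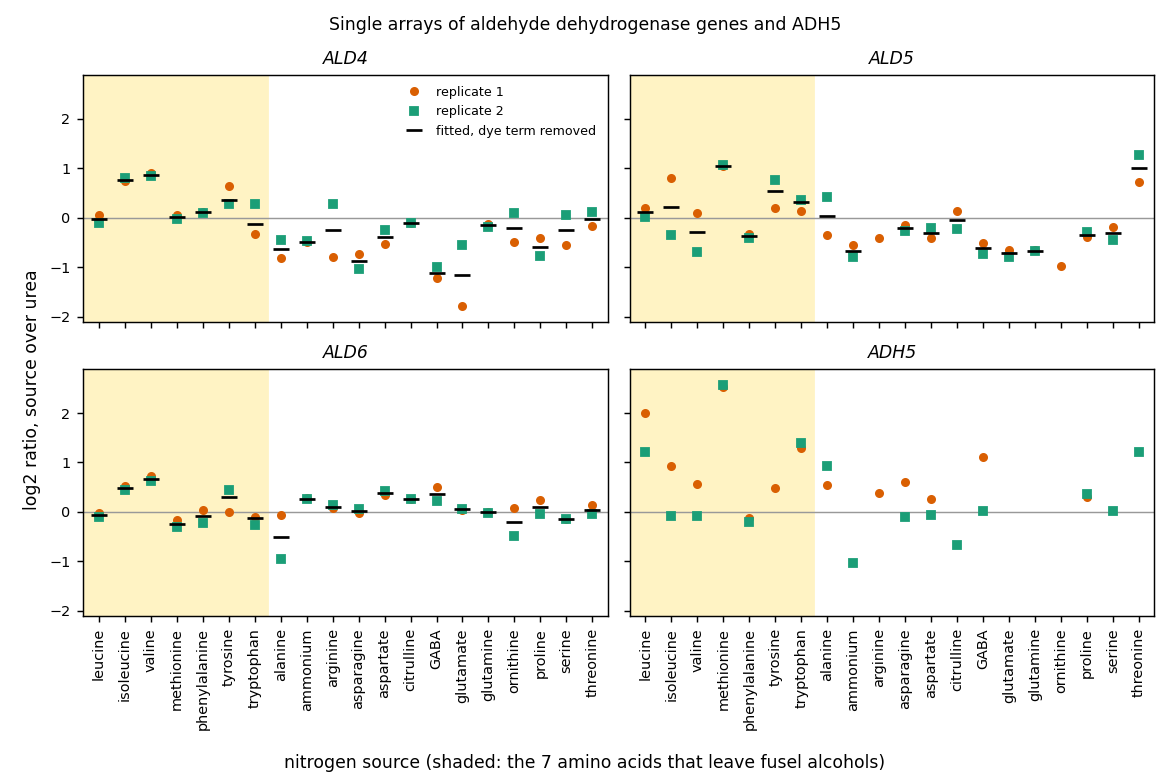
Log2 ratios of source over urea on the single arrays (circles, replicate 1; squares, replicate 2) and the fitted values (bars) of ALD4, ALD5, ALD6 and ADH5 on 20 nitrogen sources, with the 7 fusel amino acids shaded. ADH5 has values on 28 arrays and no bars; its arrays on methionine read 2.53 and 2.57.

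Glycerol-3-phosphate dehydrogenase has a pair of genes, GPD1, known for its response to osmotic stress, and GPD2, known for its response to lack of oxygen, and both were higher than on urea on most sources. GPD1 rose on 11 of 20 sources (mean 0.71, SD 0.47), and 35 of its 40 array values were above 0. On ammonium the arrays gave 1.43 and 1.39 (1.41 ± 0.23, 2.66-fold, adjusted p = 0.000115) and on aspartate 1.23 and 1.51 (1.37 ± 0.23), and both calls held with either array left out. The lowest source was citrulline, at -0.16 and -0.49 (-0.33 ± 0.23), and on isoleucine both arrays were below 0 as well (-0.15 and -0.16). The other 9 calls were lost without an array, with 0.22 to 1.06 left.

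GPD2 rose on 18 of 20 sources, all but isoleucine and citrulline, by smaller amounts (mean 0.46, SD 0.21). Methionine was highest, with array values of 1.08 and 0.52 (0.80 ± 0.10, 1.74-fold, adjusted p = 8.92e-07), and citrulline lowest, with 0.31 and -0.25 (0.03 ± 0.10). The arrays with the source in Cy5 read higher on the 18 sources with exchanged dyes, and the dye term was 0.28. Without the dye term 1 source, methionine, passed, and 14 passed with the replicate block. With either array left out, aspartate, GABA, methionine, threonine, tryptophan and tyrosine held, and the other 12 were lost, with 0.11 to 0.44 left. Tryptophan and tyrosine (0.76 ± 0.10 and 0.69 ± 0.10) rest on a dye term estimated from the other sources.

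Among the sources, aspartate had the most members higher, 13 of 28 (11.3% of all genes), with none lower by limma's test (against 10.1%, and 2 at an unadjusted p under 0.05). Valine followed with 12 of 25 higher (9.48%) and 1 lower (6.87%), ammonium with 10 of 29 higher (10.2%) and 4 lower (10.7%), serine with 9 of 28 higher (12.7%) and 3 lower (11.3%), and arginine with 8 of 27 higher (8.59%) and 2 lower (8.91%). These 5 sources had the largest excess of rises over falls. Proline had 7 of 29 higher (9.6%) and 3 lower (7.61%), glutamate 7 of 28 (10.5%) and 4 (9.87%), threonine 7 of 28 (12.7%) and 5 (8.8%), and phenylalanine 6 of 28 (10.6%) and 1 (9.8%). Rises and falls came to nearly equal numbers on several sources, among them alanine with 6 of 29 higher (9.57%) and 5 lower (12.1%), GABA with 6 of 27 (10.2%) and 5 (11%), glutamine with 6 of 26 (12.1%) and 5 (12.9%), and asparagine with 5 of 28 (10.4%) and 5 (14.7%). Leucine had 4 of 28 higher (10.4%) and 3 lower (8.27%), methionine 4 of 28 (12.7%) and 3 (11.1%), ornithine 4 of 26 (10.5%) and 2 (10.1%), and tryptophan 3 of 27 (10.3%) and 1 (8.43%). The fewest were on isoleucine with 2 of 24 (5.73%) and 1 (3.76%), tyrosine with 1 of 23 (8.43%) and 1 (6.62%), and citrulline with 1 of 29 (5.25%) and none lower by limma's test (4.87%, and 0 at an unadjusted p under 0.05). The median over the tested members was 0.36 on aspartate, 0.29 on valine and 0.01 on asparagine. On aspartate 6 of 10 genes of lower glycolysis rose (TDH1, TDH2, PGK1, GPM1, ENO1 and CDC19), and on asparagine 1 of 10 did, CDC19.

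The amino acids leucine, isoleucine, valine, methionine, phenylalanine, tyrosine and tryptophan, whose skeletons leave as fusel alcohols, were compared with the 13 other sources, with the source as the unit. Of 27 members, 1 passed as higher (2.25% of all genes did) and none as lower (0.661%), and at an unadjusted p under 0.05 the counts were 4 and 2. The gene was ALD4, with a mean of 0.28 (SD 0.40, n = 7 sources) against -0.48 (SD 0.38, n = 13 sources), a difference of 0.76 ± 0.17 (adjusted p = 0.0257). It was lost without isoleucine (0.68, adjusted p = 0.0505), without tyrosine (0.75, adjusted p = 0.0681) and without both tryptophan and tyrosine (0.83, adjusted p = 0.0819). ADH1 (0.47 ± 0.14, adjusted p = 0.0680), ADH3 (0.55 ± 0.18, adjusted p = 0.0917), ENO2 (-0.27 ± 0.08, adjusted p = 0.0715) and GPD1 (-0.49 ± 0.18, adjusted p = 0.114) did not pass. With threonine counted in the class, 5 members passed (adjusted p = 0.0042 to 0.0441): ALD4 (0.76), ALD5 (0.71) and PDC5 (0.33) as higher, and ENO2 (-0.34) and GPD1 (-0.53) as lower. PDC5 entered this test only through threonine, its highest source, which gave it the required 4 sources in the class. Threonine was also the lowest source of ENO2 and a source on which ALD5 rose, so the added calls partly follow from moving it.

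Besides, 9 pairs of related molecules were compared directly, all supplied at 10 mM. Asparagine is the amide of aspartate, and 2 of 28 members were lower on it (0.675% of all genes) and none higher (0.027%, and 0 at an unadjusted p under 0.05). PGK1 was lower by a difference of -1.37 ± 0.32 (95% interval -2.02 to -0.71, adjusted p = 0.0401), with array values of 0.48 and 0.24 on asparagine and 2.07 and 1.38 on aspartate. GPM2 was lower by -1.13 ± 0.14 (-1.43 to -0.84, adjusted p = 5.74e-05), with -1.11 and -1.02 against -0.05 and 0.19. The groups did not overlap for either gene. Genes here and in the pairs below were picked by passing the test, so such separation is no added support. The GPM2 difference held with any of the 4 arrays left out and without the dye term, and the PGK1 difference was lost under each (-1.56 to -1.18 left, and adjusted p = 0.208 without the dye term). At an unadjusted p under 0.05, 10 of the 28 members were lower on asparagine, and CDC19 (-0.68, -1.09 to -0.27), TPI1 (-0.83, -1.25 to -0.41) and ENO1 (-1.33, -2.22 to -0.44) were among those that missed the adjusted threshold.

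Threonine differs from serine by a methyl group, and 1 of 27 members was higher on it (3.03% of all genes) and 1 lower (0.404%). ALD5 was higher by 1.32 ± 0.29 (0.73 to 1.91, adjusted p = 0.00725), with array values of 0.72 and 1.28 on threonine and -0.19 and -0.44 on serine. ENO2 was lower by -0.73 ± 0.15 (-1.04 to -0.42, adjusted p = 0.00404), with -0.68 and 0.11 against 0.10 and 0.78. The groups of ALD5 did not overlap, and those of ENO2 overlapped slightly. ALD5 was lost without threonine replicate 2 (0.95), serine replicate 1 (1.39) or serine replicate 2 (1.24), and ENO2 without threonine replicate 1 (-0.51), serine replicate 2 (-0.57) or the dye term (adjusted p = 0.282).

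Valine has a shorter branched chain than leucine, and 1 of 25 members was lower on leucine than on valine (0.336% of all genes) and none higher (1.29%). ALD6 differed by -0.73 ± 0.18 (-1.10 to -0.37, adjusted p = 0.0314), with array values of -0.02 and -0.10 against 0.72 and 0.63, which did not overlap. It was lost without any of the 4 arrays (-0.76 to -0.70 left) and without the dye term (adjusted p = 0.104). At an unadjusted p under 0.05, 7 members were lower on leucine and 0 higher. Leucine against isoleucine gave no call by limma's test among 24 members (0.677% of all genes higher and 0.508% lower), with 1 higher and 2 lower unadjusted. Isoleucine against valine gave none among 22 (0.265% and 0%), with 0 higher and 8 lower unadjusted, and the CDC19 difference was -0.74 (-1.15 to -0.33).

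Citrulline carries an oxygen where arginine carries a nitrogen in the side chain, and 1 of 27 members was higher on it (3.06% of all genes) and 1 lower (1.65%). GPD1 was lower by -1.52 ± 0.33 (-2.20 to -0.84, adjusted p = 0.00691), with array values of -0.16 and -0.49 against 1.06 and 1.32. ADH3 was higher by 1.32 ± 0.33 (0.64 to 2.01, adjusted p = 0.0209), with -0.08 and 0.54 against -1.36 and -0.82. Neither gene's groups overlapped. CAR1, the arginase gene, was higher on citrulline (5.47) than on arginine (1.57), and its bearing on this pair was not tested. Both were lost without citrulline replicate 2 (-1.42 and 1.03), GPD1 without arginine replicate 2 (-1.29), ADH3 without arginine replicate 1 (1.07), and both with array weights (adjusted p = 0.104 and 0.212).

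The other pairs gave no call by limma's test. Glutamine, the amide of glutamate, had none of 25 members called (0.174% of all genes higher and 0.557% lower), with 1 higher and 1 lower unadjusted. The PGK1 difference was -0.10 (-0.76 to 0.56) and the CDC19 difference -0.05 (-0.46 to 0.36). Tyrosine, which adds a hydroxyl group to phenylalanine, had none of 23 (1.51% and 0.646%), with 3 higher and 3 lower unadjusted. The CDC19 difference was -0.57 (-0.99 to -0.16) and the GPD1 difference -0.06 (-0.75 to 0.63). Ornithine, which lacks the amidino group of arginine, had none of 26 (0.0642% and 0.0321%), with 1 higher and 2 lower unadjusted, and the GPD1 difference was -0.35 (-1.03 to 0.33). Both tyrosine arrays had the source in Cy3, so its differences also rest on the dye term.

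Isozymes of a step are set side by side here only as changes against urea, with no test, since each gene has its own probe. TDH1 was above TDH3 on 19 of 19 sources (median difference 0.54), ENO1 above ENO2 on 19 of 20 (0.68) and CDC19 above PYK2 on 18 of 19. GPM2 was below GPM1 on 16 of 18 sources (median difference -0.57) and HXK1 below HXK2 on 12 of 16 (-0.51). GPD2 was below GPD1 on 14 of 20 sources, and ALD4 below ALD6 on 13 of 20. ALD5 and ALD6 had opposite signs on 12 of 18 sources, with a correlation of -0.23. PDC5 was above PDC1 on 6 of 13 sources (median difference -0.09).

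Across sources, 7 genes of consecutive steps followed each other: TPI1, TDH1, PGK1, GPM1, ENO1, CDC19 and PDC1. Their 21 pairs had correlations of 0.43 to 0.84 (median 0.63) over the fitted values. The median over the 406 pairs of all tested members, these 21 included, was 0.12. The set was chosen after the values were seen, so its higher median was partly fixed by that choice. The values share the urea RNA and the arrays of each source, and no test was made. FBA1 was left out of the set, yet its correlations with the 7 genes ran from 0.51 (TDH1) to 0.75 (GPM1). ENO2, TDH2 and TDH3, isozyme genes of the same steps, were also left out. Their correlations with the 7 genes ran from 0.00 (TDH1) to 0.63 (TPI1) for ENO2 and from 0.07 (PDC1) to 0.55 (TPI1) for TDH2. Those of TDH3 ran from 0.37 (CDC19) to 0.70 (GPM1). The most opposed members were ENO2 and ALD5, with a correlation of -0.84 over 18 sources, followed by GPM2 and SFA1 (-0.79), TPI1 and ALD5 (-0.72) and ADH3 and GPD1 (-0.72). ALD5 was highest on methionine and threonine, the sources on which ENO2 was lowest.

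Neighbouring pathways gave the following counts over tests of a gene on a source. Only genes with values on at least 30 arrays were tested. These were 8 of the 20 hexose transporter and sensor genes on the arrays, and 7 of 10 of gluconeogenesis and the glyoxylate cycle. Of 147 tests of hexose transporters and sensors, 18 were higher (12.2%, where 10.1% of all tests were) and 39 lower (26.5%, where 9.42% were): HXT2 and HXT3, glucose transporter genes, each fell on 15 of 20 sources (mean -1.03 and -0.66), while MTH1, a gene of glucose sensing, rose on 6 of 13 (0.39) and HXT17, a gene of the transporter family, on 3 of 20 (0.34). Of 113 tests of gluconeogenesis and glyoxylate cycle genes, 13 were higher (11.5%) and 32 lower (28.3%). MLS1, the malate synthase gene, fell on 15 of 20 sources (mean -2.09), PYC1, a pyruvate carboxylase gene, on 10 of 20 (-0.73) and MDH2, the cytosolic malate dehydrogenase gene, on 4 of 12 (-0.39), while MAE1, the malic enzyme gene, rose on 8 of 20 (0.38). Most of the 32 falls were thus those of MLS1 and PYC1. The list's other tested genes had means near 0: PCK1 (-0.05) fell on 1 of 10 sources and ICL1 (-0.05) on 0 of 11. PYC2 (-0.02) rose on 5 of 20 and fell on 2. Of 292 tests of regulators of glycolysis, 30 were higher (10.3%) and 32 lower (11%): GCR1, an activator gene of glycolytic transcription, rose on 12 of 17 sources (mean 0.37), HAP4, an activator gene of respiration, on 8 of 13 (0.64) and ADR1, an activator gene of ADH2, on 5 of 17 (0.46), and MIG2, a glucose repressor gene, fell on 17 of 20 (-0.63).

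Other genes of glycerol gave 22 of 112 tests higher (19.6%, where 10.1% of all tests were), 14 of them in GPP1, and 11 lower (9.82%, where 9.42% were). GPP1, the glycerol-3-phosphatase gene that follows GPD1 and GPD2 in the pathway, rose on 14 of 19 sources (mean 0.79), GUT2 and GUT1, of glycerol use, fell on 6 of 15 (-0.37) and 2 of 12 (-0.26), and STL1, the glycerol importer gene, rose on 4 of 12 (0.26). Other alcohol and acetate enzymes gave 33 of 170 tests higher (19.4%), 18 of them in ADH4, and 30 lower (17.6%), 14 of them in BDH1. BDH1, the butanediol dehydrogenase gene, fell on 14 of 19 sources (mean -0.82), GRE3, an aldose reductase gene, rose on 8 of 20 (0.50) and GRE2, a reductase gene, on 3 of 20 (0.35). ADH4, an alcohol dehydrogenase gene induced when zinc is low, rose on 18 of 19 sources (mean 1.97, from 1.03 on tryptophan to 2.62 on arginine), while the highest mean of a tested alcohol dehydrogenase member was 0.28, that of SFA1.

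Because ADH4 and ADH1 are known for opposite responses to low zinc, a list of zinc regulon genes was read beside the alcohol dehydrogenases. It had been put together with earlier results of these data known, and holds YOR387C, VEL1 and ADH4 for that reason. Of 344 tests, 217 were higher (63.1%, where 10.1% of all tests were), and 12 of 18 genes were higher on 10 or more sources. Both counts include YOR387C, VEL1 and ADH4, with 19, 20 and 18 of the 217. The share is thus partly set by how the list was chosen and is given as a description. YOR387C (mean 3.98) passed on 19 of 20 sources, VEL1 (3.31) on 20 of 20 and MCD4 (1.49), a gene of membrane anchor synthesis, on 13 of 15, the genes with the largest means beside ADH4. A rise on all sources cannot be told apart from a low level in the urea cultures, and its part in the values of ADH1, ADH3 and GPD2 was not tested.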

How the data were processed

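PolyA RNA of cells on 20 nitrogen sources was measured against RNA of urea cultures on 40 two-colour arrays, 2 per source. The authors deposited 2 tables of log ratios of Cy5 over Cy3, taken here as log2 values, with each array's median near 0 (-0.0108 to 0.009). Not given in the sources used here are the logarithm's base, background correction, normalization, genome build and whether both tables were normalized together.

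Ratios were turned to source over urea by the dyes in the labels, and spots of a gene were averaged. Each table held 12800 probes, of which 10890 and 11188 had 1 gene name and were used. Probes of closely related members (TDH1, TDH2 and TDH3, ENO1 and ENO2, the PDC, ADH and ALD genes) were not tested for cross-hybridisation. Genes measured on 30 or more of the 40 arrays were fitted with a term per source and a dye term, with limma's moderated variance (limma 3.58.1 in R 4.3.3). A source was tested for a gene only where both arrays had a value, and p-values were adjusted by Benjamini-Hochberg over all genes, for each source, pair or F-test, with a threshold of 0.05. The class of fusel amino acids was tested with the fitted source as the unit, for genes with at least 4 sources in the class and 7 outside it. The procedure was tested on simulated data. Tables and figures were made with pandas 2.3.3, numpy 2.4.6 and matplotlib 3.10.9.

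For the 18 sources with exchanged dyes, each replicate number stands for 1 table and 1 dye orientation, so a dye effect of opposite sign in the 2 tables cannot be told apart from a shift shared by all sources. Differences between replicates 1 and 2 correlated above 0.1 in 153 of 153 pairs of these sources (median 0.438), so the numbers pair the arrays. Alternatives tried were the replicate block, a fit without a dye term, median-centred arrays, other limits on missing values, the median of spots, array weights, and each array left out in turn.

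The members and gene lists were chosen with earlier results of these data known. All members are named, with their highest and lowest sources and, for 5 calls or fewer, each source that passed. Of each other list, the 4 genes with the largest absolute mean over sources are named, and for gluconeogenesis and the glyoxylate cycle all tested genes.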

Additional observations from a re-analysis of the deposited data

Results flagged for a closer look

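The following members differed between groups of sources by limma's test of the difference itself, with Benjamini-Hochberg adjustment over all genes. ALD4 was 0.76 higher on the 7 fusel amino acids than on the 13 other sources. Asparagine minus aspartate was -1.37 for PGK1 and -1.13 for GPM2. Threonine minus serine was 1.32 for ALD5 and -0.73 for ENO2. Leucine minus valine was -0.73 for ALD6. Citrulline minus arginine was 1.32 for ADH3 and -1.52 for GPD1. Of these 8 differences, that of GPM2 held with each array of its sources left out, and that of ALD4 with each of the 40 arrays left out, though not without isoleucine, without tyrosine or without tryptophan and tyrosine. The other 6 were each lost without 1 or more arrays.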

How the results depend on the processing

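Against 121 higher and 54 lower calls on single sources, 80 and 35 remained in number without the dye term, and 111 and 46 with the replicate block. Genes with values on all 40 arrays gave 91 and 26, from 18 members tested. The F-test over sources passed 25 members, and 15 with values on all 40 arrays. Of the 15 members differing between sources, the counts were 8 without the dye term, 12 with the replicate block and 9 with values on all 40 arrays. The 7 calls in pairs became 4 without the dye term, 4 with values on all 40 arrays and 15 with array weights; the causes were not tested. The call in the fusel class became 5 with threonine in it, and 0 without isoleucine, without tyrosine or without tryptophan and tyrosine (at an unadjusted p under 0.05 the class had 4 higher and 2 lower). With each array left out in turn, the counts were 110 to 128 higher, 45 to 56 lower, 23 to 26 past the F-test, 11 to 17 between sources, 1 to 2 in the class and 4 to 10 in pairs, the lowest pair count being without serine replicate 2. TDH2 on arginine, at -1.20, was 0.0356 without arginine replicate 1 and -2.44 without replicate 2. Of 175 calls, 85 held without replicate 1 of the source and 60 without replicate 2, where the lone array is assumed to vary like the others. Leaving the tryptophan and tyrosine arrays out of the fit, an alternative chosen after seeing the data, gave 115 higher, 52 lower, 24 past the F-test and 12 between sources, with CDC19 (adjusted p = 0.0724), ENO1 (0.0525) and PYK2 (0.0715) no longer among the last. The number of arrays limits the precision, and low signals cannot be judged from ratios alone.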

Other observations

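Neighbouring branches of carbon metabolism gave the following values against urea, from lists that do not overlap the members. In the pentose phosphate pathway, 28 of 222 tests of a gene on a source were higher (12.6%) and 24 lower (10.8%), where 10.1% and 9.42% of all tests were. GND1, the phosphogluconate dehydrogenase gene, rose on 11 of 20 sources (mean 0.39, from -0.23 on citrulline to 0.77 on ammonium), and NQM1, a transaldolase homologue gene, on 6 of 14 (mean 0.56). PRS2, a gene of phosphoribosyl pyrophosphate synthesis, fell on 11 of 17 sources (mean -0.41) and RKI1, the ribose-5-phosphate isomerase gene, on 6 of 19 (mean -0.24).

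Genes of pyruvate dehydrogenase and mitochondrial pyruvate uptake had 30 of 209 tests higher (14.4%) and 4 lower (1.91%). MPC2, a subunit gene of the mitochondrial pyruvate carrier, rose on 8 of 20 sources (mean 0.28), PDX1 on 7 of 19 (mean 0.19) and LPD1 on 3 of 20 (mean 0.18), both genes of dehydrogenase complex subunits. MPC3, another carrier gene, rose on 3 of 18 sources and fell on 1, from -0.98 on proline to 1.08 on tryptophan. Thiamine pyrophosphate is the cofactor of pyruvate decarboxylase and pyruvate dehydrogenase. Of the 20 listed thiamine genes on the arrays, 6 had enough values to be tested. Of their 102 tests, 2 were higher (1.96%) and 13 lower (12.7%). THI80, the thiamine pyrophosphokinase gene, fell on 9 of 20 sources (mean -0.26) and THI6 on 3 of 19 (mean -0.16), while the means of THI13 and THI5 were 0.11 and 0.09.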
